A study of Arabidopsis thaliana with 18 samples.

Results

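The Calvin cycle and photorespiration genes described here are 37 nuclear genes of Arabidopsis thaliana, 24 of the Calvin cycle and 13 of photorespiration, picked by their AGI codes from the 26073 genes listed in each library. The Calvin cycle set holds the Rubisco small subunits, Rubisco activase (RCA), the enzymes of reduction and regeneration and the CP12 proteins. The photorespiration set holds the core enzymes of the peroxisome and mitochondrion, the chloroplast glycerate kinase and the chloroplast glycolate and glycerate transporter. RNA was sequenced from cotyledon, apical hook and hypocotyl of pifq and of wild-type Col-0 (WT), 3 libraries for each of the 6 groups and 18 in all. The pifq mutant lacks the phytochrome interacting factors PIF1, PIF3, PIF4 and PIF5, a family of basic helix-loop-helix transcription factors, and the labels do not give its alleles. Both genotypes were kept 4 days in the dark at 22 °C on MS medium with 3% sucrose, so all groups share darkness and a sugar supply. The study asked how the loss of the PIFs acts in each organ.

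In the Calvin cycle, Rubisco fixes CO2 onto ribulose bisphosphate, 2 reduction steps turn the product into triose phosphate, and a chain of aldolases, phosphatases, transketolase and isomerases rebuilds the acceptor. Rubisco also takes oxygen, and photorespiration salvages the resulting glycolate through the chloroplast, peroxisome and mitochondrion. PIFs are known to repress many nuclear genes for chloroplast proteins in the dark, and light leads to their degradation.

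The results turn on copies of one enzyme that differ in response, so the upstream letters of the Rubisco small subunit genes (RBCS) and of the A subunits of photosynthetic glyceraldehyde-3-phosphate dehydrogenase (GAPA) are shown first, from the RefSeq annotation of TAIR10.1. Capitals mark 3 motifs searched on both strands: the G-box CACGTG, which PIFs are known to bind, the PBE-box CACATG, also a known PIF site, and the I-box core GATAAG, an element known from light-regulated genes. The first 4 lines give 30 bases from the I-box that lies farthest before the start codon, at chr1:25049503-25049532 for RBCS1A, chr5:15385296-15385325 for RBCS1B, chr5:15382188-15382217 for RBCS2B and chr5:15378517-15378546 for RBCS3B, all on the minus strand.
RBCS1A: GATAAGattcatggaattatcttcCACGTG
RBCS1B: GATAAGATAAGggtgtcaacacctttcctt
RBCS2B: GATAAGattatggagttttctgcCACGTGa
RBCS3B: GATAAGataatggagttttctgcCACGTGg
RBCS1A, RBCS2B and RBCS3B each held an I-box followed by a G-box within these 30 bases. RBCS1B held a pair of overlapping I-boxes and no G-box. A PBE-box of RBCS1B lies past these 30 bases, at -137 from the start codon.

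The next lines give the 250 bases before the annotated gene start of 4 genes, at chr5:15385321-15385570 (minus strand) for RBCS1B, chr5:15382072-15382321 (minus) for RBCS2B, chr3:9794612-9794861 (plus) for GAPA1 and chr1:4394455-4394704 (minus) for GAPA2.
RBCS1B: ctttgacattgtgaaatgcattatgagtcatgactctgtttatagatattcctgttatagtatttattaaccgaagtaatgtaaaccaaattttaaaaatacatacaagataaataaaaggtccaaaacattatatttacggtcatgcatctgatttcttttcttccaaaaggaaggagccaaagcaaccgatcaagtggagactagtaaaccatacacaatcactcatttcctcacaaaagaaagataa
RBCS2B: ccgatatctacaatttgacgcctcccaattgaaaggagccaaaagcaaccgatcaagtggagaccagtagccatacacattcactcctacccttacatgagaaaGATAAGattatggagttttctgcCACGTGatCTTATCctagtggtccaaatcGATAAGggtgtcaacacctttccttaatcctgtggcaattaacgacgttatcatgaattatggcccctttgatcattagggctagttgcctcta
GAPA1: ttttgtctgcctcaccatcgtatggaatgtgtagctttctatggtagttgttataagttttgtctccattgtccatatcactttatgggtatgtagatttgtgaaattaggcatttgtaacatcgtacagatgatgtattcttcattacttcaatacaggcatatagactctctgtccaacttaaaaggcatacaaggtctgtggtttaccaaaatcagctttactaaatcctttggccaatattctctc
GAPA2: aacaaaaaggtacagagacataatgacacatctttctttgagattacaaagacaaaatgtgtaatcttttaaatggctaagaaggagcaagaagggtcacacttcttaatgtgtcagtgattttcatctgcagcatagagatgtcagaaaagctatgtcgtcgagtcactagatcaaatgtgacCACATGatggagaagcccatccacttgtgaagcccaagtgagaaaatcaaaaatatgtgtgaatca
In these windows RBCS2B held 1 G-box and 3 I-boxes, GAPA2 held 1 PBE-box, and RBCS1B and GAPA1 held none of the 3 motifs. Both RBCS windows contain the 23 bases aaagcaaccgatcaagtggagac. From the first base of that run to the first base of the I-box nearest the start codon the distance is 69 bases in RBCS1B and 115 in RBCS2B, which is 46 fewer in RBCS1B. The G-box and the other I-boxes of RBCS2B lie in that interval. Annotated gene starts are not at matching places in the RBCS genes, so a window before the gene start does not compare like with like.

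Values are FPKM, reads scaled by exon length and library size. The smallest steps between low values give a depth of 12955815 to 20701103 reads per library, at which a single read adds 0.0483 to 0.0772 FPKM to a 1 kb gene. PIF3 fell in pifq by 3.74, 4.89 and 3.42 on the log2 scale in cotyledon, hook and hypocotyl, and PIF5 by 1.70, 1.80 and 0.74. PIF1 and PIF4 transcripts (log2 changes -0.23, -0.73 and 1.01, and 0.11, 0.21 and 1.47) check nothing, since the alleles are not given. Chloroplast-encoded transcripts summed to 463.3 to 1262.6 FPKM in pifq cotyledon and hook libraries, against 7522.5 to 18291.7 FPKM in the WT ones. In hypocotyl they summed to 316.2 to 4306.8 FPKM in pifq and to 1950.6 to 3433.4 FPKM in WT. Stomatal lineage markers, 7 genes, summed to 67.53 to 77.15 FPKM in pifq and 34.24 to 40.07 FPKM in WT cotyledon, to 41.03 to 55.56 and 8.01 to 14.44 FPKM in hook, and to 8.09 to 14.46 and 2.92 to 5.0 FPKM in hypocotyl. Of these 7, 6 rose in cotyledon, 7 in hook and 6 in hypocotyl, against 24.4%, 36.6% and 35.9% of all genes. Meristem and boundary markers summed to 2.66 to 4.1 FPKM in pifq and 7.26 to 13.12 FPKM in WT cotyledon, to 63.54 to 113.77 and 61.12 to 76.05 FPKM in hook, and to 110.79 to 163.86 and 41.29 to 57.6 FPKM in hypocotyl. KNAT1 alone had 113, 106 and 160 FPKM in pifq hypocotyl and 37.6, 52.7 and 53.7 FPKM in WT hypocotyl. Of the 5 tested, 0, 3 and 3 rose in cotyledon, hook and hypocotyl. In the same order 2, 0 and 1 fell, against 35.4%, 24% and 16.5% of all genes. Xylem markers summed to 40.96 to 53.09 FPKM in pifq and 33.89 to 42.39 FPKM in WT cotyledon, to 98.63 to 126.99 and 56.47 to 65.56 FPKM in hook, where 4 of 5 rose, and to 269.26 to 283.21 and 281.71 to 300.5 FPKM in hypocotyl. The part of these markers in the results was not tested. HLS1, the hook gene checked, averaged 19.433 FPKM in WT hook, against 35.507 FPKM in WT cotyledon, so it does not single out the hook. In bulk tissue, fewer cells of a type and less RNA per cell cannot be told apart.

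Most genes of both pathways rose in pifq cotyledon and hook, and fewer did in hypocotyl. In cotyledon 17 of 24 Calvin cycle genes rose and 2 fell, and 12 of 13 photorespiration genes rose and none fell, at an adjusted p under 0.05; of all 19349 genes tested, 24.4% rose and 35.4% fell. In hook 19 of 24 Calvin cycle genes rose and 2 fell, and 12 of 13 photorespiration genes rose, against 36.6% higher and 24% lower among all genes. In hypocotyl 13 of 24 and 7 of 13 rose and 1 Calvin cycle gene fell, against 35.9% higher and 16.5% lower among all genes. The median log2 change of the Calvin cycle genes was 0.95, 1.29 and 0.56 in cotyledon, hook and hypocotyl, and that of the photorespiration genes was 1.0, 1.24 and 0.64. The median of all genes was -0.098, 0.119 and 0.171. All 37 passed the filter of 1 FPKM in 3 libraries.

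**Figure D1:**
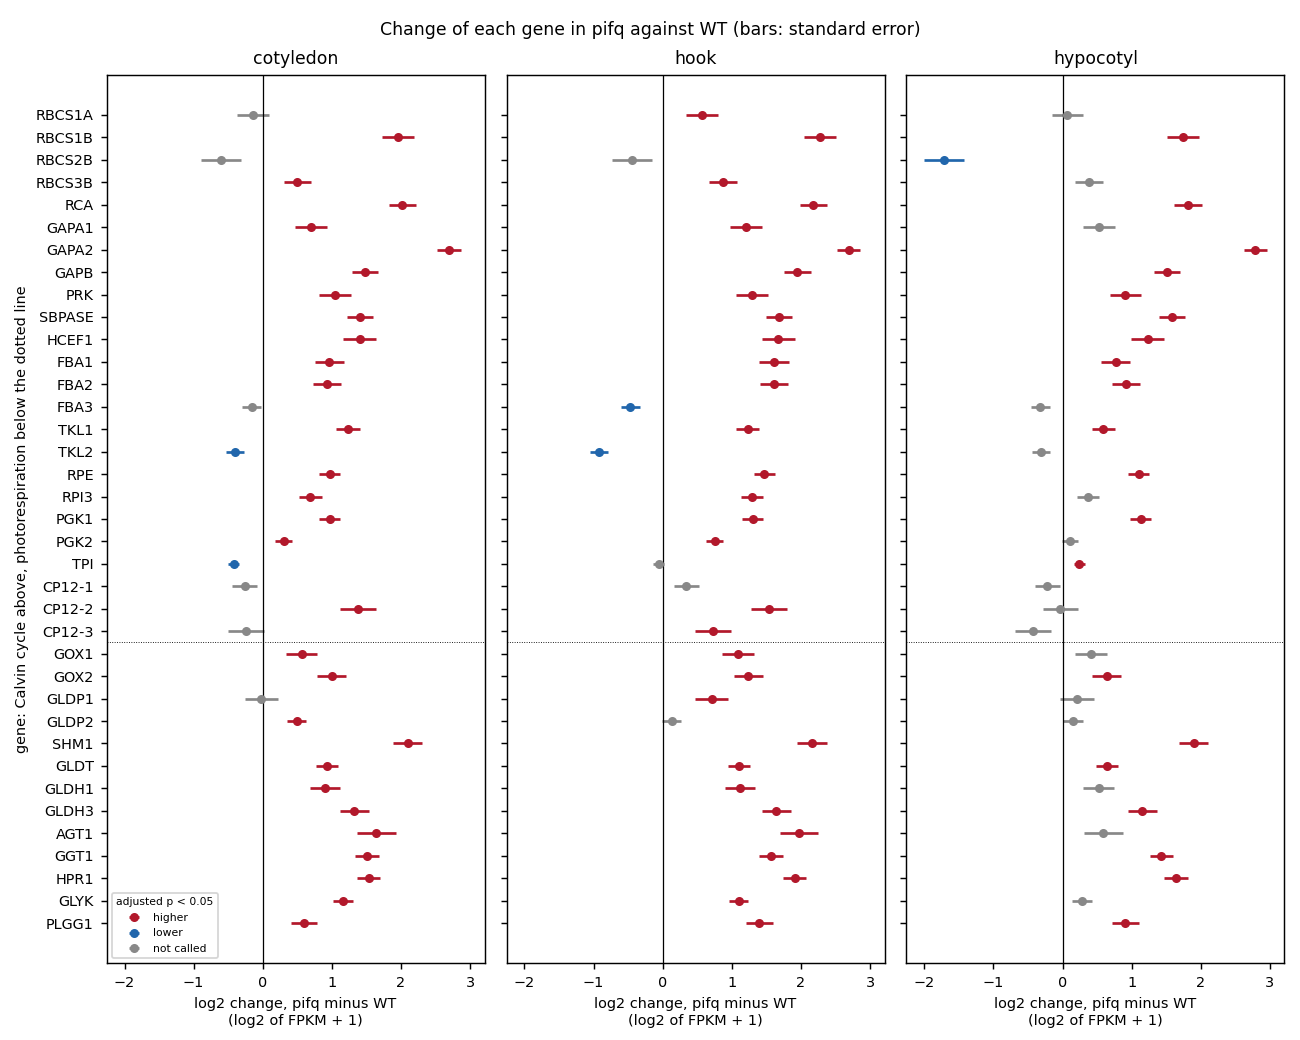
Log2 change of each gene in pifq against WT (x axis, log2 of FPKM + 1) with its standard error, 1 panel an organ, coloured by the call at adjusted p under 0.05. GAPA2 lies farthest right in each panel, at 2.69, 2.69 and 2.79, and RBCS2B in hypocotyl farthest left, at -1.72.

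12 Calvin cycle genes (FBA1, FBA2, GAPA2, GAPB, HCEF1, PGK1, PRK, RBCS1B, RCA, RPE, SBPASE and TKL1) and 7 photorespiration genes (GGT1, GLDH3, GLDT, GOX2, HPR1, PLGG1 and SHM1) were called higher in all 3 organs. Another 5 and 4 were called higher in cotyledon and hook and not called in hypocotyl. Scaling each library to median ratios moved the median change of all genes by 0.134, -0.146 and -0.198, and then 17, 17 and 10 Calvin cycle genes and 12, 11 and 6 photorespiration genes were called higher (32.4%, 28.6% and 23.4% of all genes), with 0, 3 and 4 Calvin cycle genes lower (27.4%, 31.2% and 27.1%). With the summed organelle transcripts as a covariate, 5 Calvin cycle and 5 photorespiration genes were called higher in cotyledon and 11 and 5 in hook. Of all 19349 genes, 2713 were then called higher in cotyledon and 3998 in hook. In hypocotyl the counts stayed within 1.5 times those without the covariate. The covariate separates the genotypes without overlap in cotyledon and hook. Its part in the counts cannot be told apart from that of the genotype.

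Among the Rubisco genes, the small subunit copies moved apart. RBCS1A (AT1G67090), the most abundant of the 37, had 12026, 14219 and 14541 FPKM in pifq cotyledon, against 13987, 15845 and 15150 FPKM in WT cotyledon. The groups overlapped, and RBCS1A was not called there (log2 change -0.14, SE 0.23, adjusted p = 0.619). In hook it was called higher at 0.57 (SE 0.23, adjusted p = 0.0396), a call lost after median-ratio scaling (0.39, adjusted p = 0.165) and when pifq hook replicate 1 or 3, WT hook replicate 2 or 3, or WT hypocotyl replicate 3 was left out. RBCS1B (AT5G38430) had 244, 346 and 346 FPKM in pifq cotyledon, against 74.7, 84.9 and 77.2 FPKM in WT cotyledon. In hook it had 178, 125 and 133 FPKM in pifq, against 38.9, 24.9 and 24.6 FPKM in WT. All pifq libraries lay above all WT libraries in each organ, by 1.95 (SE 0.23, adjusted p = 1.83e-06), 2.28 and 1.74 on the log2 scale in cotyledon, hook and hypocotyl.

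RBCS2B (AT5G38420) went the other way. It had 149, 70.5 and 170 FPKM in pifq hypocotyl, against 395, 421 and 391 FPKM in WT hypocotyl. Every pifq library was below every WT library, and the fall was 1.72 on the log2 scale (log2 change -1.72, SE 0.29, adjusted p = 0.000119). In cotyledon RBCS2B averaged 2188 ± 339 FPKM in pifq and 3298 ± 128 FPKM in WT (SD, n = 3 each) without a call (adjusted p = 0.0808), and was called lower there when pifq hypocotyl replicate 2 was left out. RBCS3B (AT5G38410) had 4031, 4712 and 4990 FPKM in pifq cotyledon, against 3274, 3224 and 3155 FPKM in WT cotyledon. It was called higher in cotyledon (0.50, SE 0.20, adjusted p = 0.0365) and hook (0.87, adjusted p = 0.00115); the cotyledon call was lost when any of 5 cotyledon libraries was left out, pifq replicates 2 and 3 and each WT one. The coding sequences of RBCS1B, RBCS2B and RBCS3B were 96.7% to 97.3% identical and RBCS1A 90.4% to 90.6% identical to them. How reads shared by such copies were counted is not given in the sources used here, so the split among copies is uncertain. RBCS1B, RBCS2B and RBCS3B lie side by side on chromosome 5, at 15383167 to 15385320, 15380907 to 15382071 and 15376988 to 15378642 (TAIR10.1).

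RCA (AT2G39730), which frees inhibited Rubisco sites, had 2812, 2998 and 3088 FPKM in pifq cotyledon, against 731, 730 and 722 FPKM in WT cotyledon. In hypocotyl it had 499, 390 and 551 FPKM in pifq, against 114, 180 and 120 FPKM in WT. The groups were far apart in each organ, at log2 changes of 2.02, 2.18 and 1.81 in cotyledon, hook and hypocotyl (SE 0.20, adjusted p = 3.25e-07, 1.68e-07 and 2.29e-06). The chloroplast-encoded large subunit gene rbcL fell by 2.49 in cotyledon and 2.1 in hook on the log2 scale. In hypocotyl its change of -1.09 was not called (adjusted p = 0.126). Median chloroplast sums in pifq and WT were 908.0 and 14376.4 FPKM in cotyledon, 636.1 and 7950.6 in hook, and 2867.2 and 2433.2 in hypocotyl. Mitochondrial medians were 77.3 and 4231.1 FPKM in cotyledon, 92.9 and 10016.3 in hook, and 2131.5 and 8337.2 in hypocotyl. A fall of rbcL apart from other organelle transcripts was not tested.

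In the reduction steps GAPA2 (AT1G12900) changed most. It had 1145, 1434 and 1369 FPKM in pifq cotyledon, against 186, 217 and 203 FPKM in WT cotyledon. In hypocotyl it had 306, 197 and 248 FPKM in pifq, against 30, 38.7 and 35.8 FPKM in WT. No pifq library came near a WT one, and the ratio of means was 6.52, 6.54 and 7.19 in cotyledon, hook and hypocotyl (adjusted p = 1.74e-09, 1.86e-09 and 2.85e-09). GAPA1 (AT3G26650), the other A subunit gene, had 1579, 1818 and 1784 FPKM in pifq cotyledon, against 1012, 1094 and 1077 FPKM in WT cotyledon. It was called higher in cotyledon (0.70) and hook (1.21) and not called in hypocotyl (0.53, adjusted p = 0.0576). GAPB (AT1G42970), the B subunit, rose by 1.48, 1.95 and 1.51. PGK1 (AT3G12780), a phosphoglycerate kinase, rose by 0.97, 1.30 and 1.13, and PGK2 (AT1G56190) by 0.30 in cotyledon and 0.75 in hook (adjusted p = 0.0359 and 3.64e-05). The PGK2 call in cotyledon was lost when any 1 of the 6 cotyledon libraries was left out. TPI (AT2G21170), plastid triosephosphate isomerase, averaged 287.8 ± 5.42 FPKM in pifq and 385.4 ± 19.5 FPKM in WT cotyledon, and 157.0 ± 4.94 FPKM in pifq and 132.9 ± 10.6 FPKM in WT hypocotyl (SD, n = 3 each). It was called lower in cotyledon (-0.42) and higher in hypocotyl (0.24), and median-ratio scaling ended both calls (-0.21, adjusted p = 0.0518, and -0.0, adjusted p = 0.987). The hypocotyl call was also lost without pifq hypocotyl replicate 1 or WT hypocotyl replicate 3.

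Most regeneration genes rose together. SBPASE (AT3G55800), sedoheptulose-bisphosphatase, had 477, 517 and 540 FPKM in pifq cotyledon, against 194, 205 and 175 FPKM in WT cotyledon. It rose by 1.41, 1.68 and 1.58 in cotyledon, hook and hypocotyl. The chloroplast fructose-bisphosphatase HCEF1 (AT3G54050) rose by 1.40, 1.67 and 1.23, the aldolase FBA2 (AT4G38970) by 0.93, 1.61 and 0.92, and phosphoribulokinase PRK (AT1G32060) by 1.05, 1.29 and 0.91. The epimerase RPE (AT5G61410) rose by 0.97, 1.47 and 1.1 and transketolase TKL1 (AT3G60750) by 1.23, 1.23 and 0.59. In none of these did a pifq library overlap a WT one in any organ. FBA1 (AT2G21330) rose by 0.96, 1.61 and 0.77, and the isomerase RPI3 (AT3G04790) by 0.69 in cotyledon and 1.29 in hook. After median-ratio scaling the hypocotyl calls of FBA1 (0.53, adjusted p = 0.0585) and TKL1 (0.35, adjusted p = 0.107) were lost.

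TKL2 (AT2G45290) and FBA3 (AT2G01140), a second transketolase and a further plastid aldolase, did not follow. TKL2 had 9.95, 11.8 and 11 FPKM in pifq hook, against 18.1, 21.8 and 25 FPKM in WT hook. The pifq libraries all lay below the WT ones (log2 change -0.92, SE 0.13, adjusted p = 2.16e-05). In cotyledon TKL2 was also called lower (-0.40, adjusted p = 0.0165), a call lost after median-ratio scaling (-0.22, adjusted p = 0.173) and without pifq or WT cotyledon replicate 3. FBA3 had 122, 138 and 122 FPKM in pifq hook, against 162, 188 and 181 FPKM in WT hook, and was called lower (-0.47, SE 0.14, adjusted p = 0.00801). The organelle covariate turned that sign (0.09).

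Of the CP12 proteins, which bind GAPDH and phosphoribulokinase in the dark, only CP12-2 (AT3G62410) rose in more than 1 organ. It had 85.9, 109 and 107 FPKM in pifq cotyledon, against 37.3, 46.2 and 31.2 FPKM in WT cotyledon (1.38, SE 0.26, adjusted p = 0.00024). It rose by 1.54 in hook. In hypocotyl it had 7.90, 6.46 and 12.1 FPKM in pifq, against 10.2, 6.80 and 9.53 FPKM in WT, with overlapping groups (-0.03, adjusted p = 0.935). CP12-1 (AT2G47400) was not called in any organ (-0.26, 0.34 and -0.22). CP12-3 (AT1G76560), at 1.32 to 5.25 FPKM over the 18 libraries, was called higher in hook only (0.73, adjusted p = 0.0232), and not after median-ratio scaling (0.57, adjusted p = 0.0614) or without pifq hook replicate 1, WT hook replicate 1 or WT hook replicate 3.

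**Figure D2:**
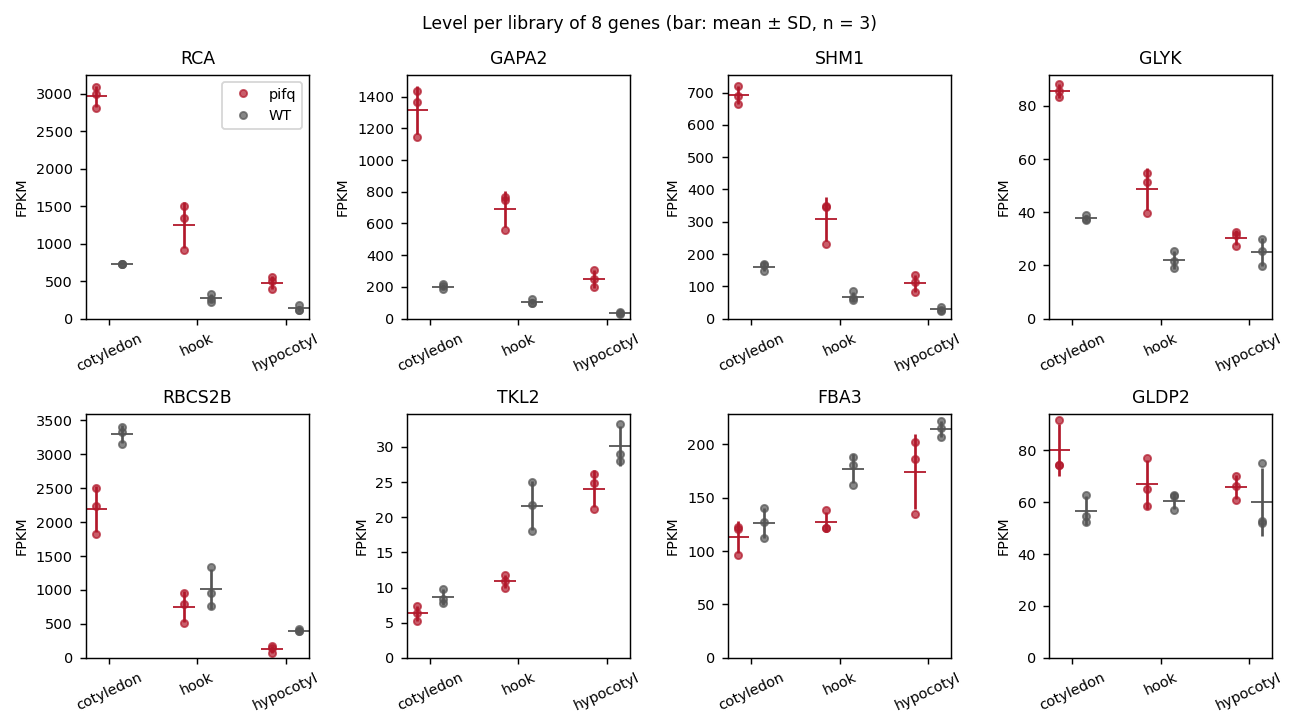
FPKM in every library of RCA, GAPA2, SHM1 and GLYK (top row) and of RBCS2B, TKL2, FBA3 and GLDP2 (bottom row). Bars give mean ± SD (n = 3) for pifq and WT in each organ. The top genes were called higher in pifq cotyledon and hook. Of the bottom genes only GLDP2 was called higher, in cotyledon. RCA in pifq cotyledon lies at 2812 to 3088 FPKM and in WT cotyledon at 722 to 731 FPKM, and TKL2 is highest in hypocotyl in both genotypes.

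Among the photorespiration enzymes the mitochondrial serine hydroxymethyltransferase SHM1 (AT4G37930) rose most. It had 665, 691 and 721 FPKM in pifq cotyledon, against 170, 167 and 147 FPKM in WT cotyledon. In hook it had 349, 231 and 347 FPKM in pifq, against 84.5, 63.1 and 56.7 FPKM in WT. All pifq libraries lay above all WT libraries, and the log2 change was 2.1, 2.16 and 1.90 in cotyledon, hook and hypocotyl (SE 0.21, adjusted p = 2.96e-07, 2.45e-07 and 1.76e-06). In glycine decarboxylase, which works with SHM1, the T protein gene GLDT (AT1G11860) rose by 0.93, 1.1 and 0.64 and the H protein gene GLDH3 (AT1G32470) by 1.32, 1.64 and 1.15. The other H protein gene GLDH1 (AT2G35370) rose by 0.90 in cotyledon and 1.12 in hook. The P protein genes moved least: GLDP1 (AT4G33010) had 427, 356 and 375 FPKM in pifq cotyledon, against 361, 381 and 433 FPKM in WT cotyledon (-0.02, adjusted p = 0.952). GLDP1 was called higher in hook (0.71, adjusted p = 0.0182), but not after median-ratio scaling (0.53, adjusted p = 0.0775) or without pifq hook replicate 3 or WT hook replicate 3. GLDP2 (AT2G26080) was called higher in cotyledon (0.49, adjusted p = 0.00588).

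In the peroxisome, hydroxypyruvate reductase HPR1 (AT1G68010) had 338, 380 and 385 FPKM in pifq cotyledon, against 126, 133 and 122 FPKM in WT cotyledon. It rose by 1.53, 1.91 and 1.64 in cotyledon, hook and hypocotyl, with no overlap. The glutamate:glyoxylate aminotransferase GGT1 (AT1G23310) rose by 1.51, 1.57 and 1.43. The serine:glyoxylate aminotransferase AGT1 (AT2G13360) had 349, 409 and 413 FPKM in pifq cotyledon, against 102, 136 and 137 FPKM in WT cotyledon (1.64, SE 0.28). AGT1 rose by 1.97 in hook and was not called in hypocotyl (0.59, adjusted p = 0.0854). The glycolate oxidase GOX2 (AT3G14415) rose by 1.0, 1.24 and 0.64 and its neighbour GOX1 (AT3G14420) by 0.56 in cotyledon and 1.09 in hook. The GOX1 call in cotyledon (adjusted p = 0.0441) was lost when any 1 of the 6 cotyledon libraries, WT hook replicate 2, or WT hypocotyl replicate 2 or 3 was left out, and the organelle covariate turned its sign (-0.13). The hypocotyl call of GOX2 (adjusted p = 0.0164) was lost without pifq or WT hypocotyl replicate 1 or 3 and after median-ratio scaling (0.40, adjusted p = 0.125).

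In the chloroplast, glycerate kinase GLYK (AT1G80380) had 88.3, 83.2 and 85.4 FPKM in pifq cotyledon, against 37, 37.5 and 39.1 FPKM in WT cotyledon. In hypocotyl GLYK had 32.5, 27.2 and 31.4 FPKM in pifq, against 25.5, 30.1 and 19.7 FPKM in WT. The groups lay apart in cotyledon (1.16, adjusted p = 3.64e-06) and hook (1.1) and overlapped in hypocotyl (0.28, adjusted p = 0.111). PLGG1 (AT1G32080), which carries glycolate out of and glycerate into the chloroplast, rose by 0.60, 1.40 and 0.91.

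In hypocotyl 16 of the 37 genes were not called, and libraries of a group stood apart from each other. Replicate 2 of pifq hypocotyl was lowest in its group for 33 of 37 genes, and replicate 2 of pifq hook for 35 of 37. In WT hook, replicate 3 was lowest for 32 of 37 and replicate 1 highest for 32 of 37. Without both low pifq libraries, 16 Calvin cycle and 11 photorespiration genes were called higher in hypocotyl. Without WT hypocotyl replicate 2 alone, 11 photorespiration genes were called higher there. With all libraries 6939 of all genes were called higher in hypocotyl, and leaving out any 1 library gave 6116 to 7000. Without both low pifq libraries that count stayed within 1.5 times.

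Copies of one enzyme were then set against each other by the log2 ratio of their levels in a library, which a change of library scale leaves nearly unchanged. In 11 of 13 pairs the ratio differed between pifq and WT (two-sided exact permutation test with genotype permuted within organs, adjusted over 13 pairs). The smallest p this test can give is 0.00025. Pairs of other genes were not tested, so no background share stands beside this count. RBCS1A, FBA2 and CP12-2 recur among the pairs, which are therefore not independent. The GAPA1 to GAPA2 ratio was lower in pifq by 1.91 on the log2 scale (log2 difference -1.91, adjusted p = 0.000406, exact permutation). GAPA2 made up 43.2% ± 1.05 of the summed GAPA level in pifq cotyledon and 16.0% ± 0.514 in WT cotyledon (SD, n = 3 each). In hypocotyl it made up 55.6% ± 2.67 in pifq and 20.7% ± 4.93 in WT. GAPA1 made up most of the GAPA level in every WT library.

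The RBCS1A to RBCS2B ratio was higher in pifq by 1.09 and the RBCS1A to RBCS1B ratio lower, at -1.82 (adjusted p = 0.000406 for each, exact permutation). RBCS2B made up 10.5%, 8.21% and 4.88% of the summed RBCS level in pifq cotyledon, hook and hypocotyl, against 15.3%, 16.0% and 15.7% in WT. Its share was lowest in hypocotyl in pifq, and no pifq library reached the lowest WT one. RBCS3B made up 22.1%, 21.0% and 20.8% in pifq, against 14.9%, 16.5% and 15.8% in WT. RBCS1B stayed a minor copy, at 1.5%, 1.62% and 1.89% in pifq, against 0.365%, 0.467% and 0.550% in WT. RBCS1A kept the bulk, at 65.8%, 69.1% and 72.4% in pifq, against 69.4%, 67.0% and 67.9% in WT.

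**Figure D3:**
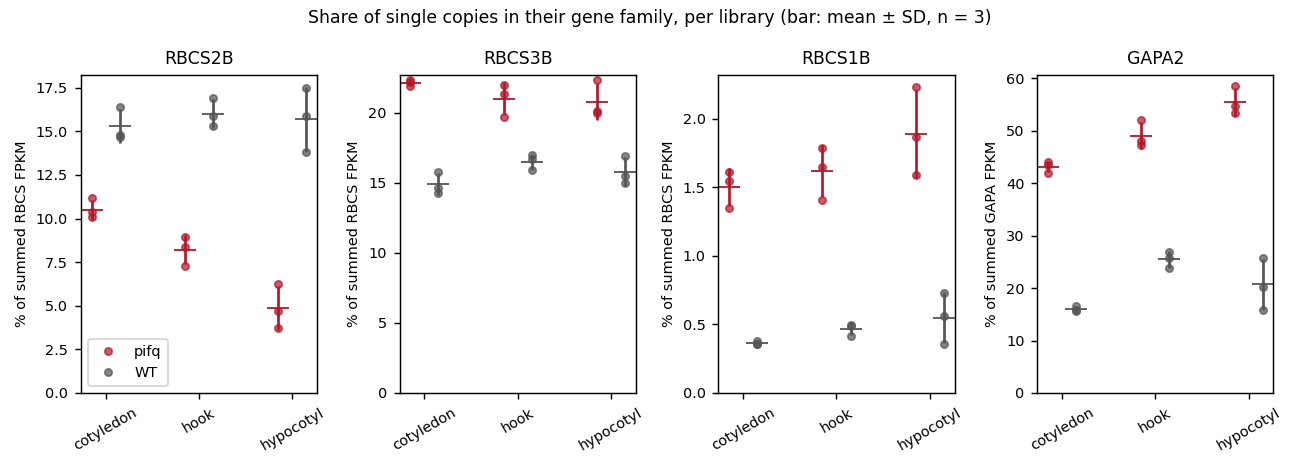
Share of RBCS2B, RBCS3B and RBCS1B in the summed RBCS FPKM and of GAPA2 in the summed GAPA FPKM (y axes, %), per library with mean ± SD (n = 3), pifq left of WT in each organ. RBCS2B lies at 3.72% to 11.2% in pifq and 13.8% to 17.5% in WT, and GAPA2 at 42.0% to 58.6% in pifq and 15.6% to 26.9% in WT.

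The copies TKL2 and FBA3, which did not rise, lost share against TKL1 and FBA2, at log2 ratio differences of -1.56 and -1.47 (adjusted p = 0.000406 each, exact permutation). PGK1 gained on PGK2 (0.75) and GLDH3 on GLDH1 (0.52), also at adjusted p = 0.000406 (exact permutation). GOX2 gained on GOX1 by 0.28 (adjusted p = 0.0168, exact permutation), and the call was lost without pifq hypocotyl replicate 2 (0.25) or WT hypocotyl replicate 1 (0.19); these genes are 92.4% identical in their coding sequences. CP12-1 and CP12-3 both lost against CP12-2 (-1.01 and -0.95, adjusted p = 0.00181 and 0.00553, exact permutation). These differences were -1.64 and -1.62 in cotyledon and -0.20 and -0.40 in hypocotyl, where the ratios of pifq and WT libraries overlapped for both pairs. FBA1 to FBA2 (-0.04, adjusted p = 0.712, exact permutation) and GLDP2 to GLDP1 (-0.04, adjusted p = 0.773, exact permutation) did not pass the test. The GLDP mean joins opposite signs: the GLDP2 to GLDP1 ratio was 0.198 to 0.215 in pifq and 0.137 to 0.152 in WT cotyledon, and 0.293 to 0.403 in pifq and 0.437 to 0.615 in WT hook, with no overlap in either organ.

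Across organs, most of the genes were highest in cotyledon and lowest in hypocotyl in both genotypes. By mean level 34 of 37 followed that order in pifq, 33 of them with no overlap between neighbouring organs, and 31 of 37 in WT, 27 of them with no overlap. In pifq 33 of 37 were called lower in hook than in cotyledon and 1 higher, against 11.4% lower and 53.4% higher among all genes. Between hypocotyl and cotyledon 33 were lower and 2 higher in pifq (22.4% and 49.5% of all genes), and between hypocotyl and hook again 33 lower and 2 higher (37.6% and 27.1%). In WT 33 were lower and 2 higher in hook than in cotyledon (23.9% and 33.9%). Between hypocotyl and cotyledon 33 were lower and 2 higher in WT (37.7% and 36.3%), and between hypocotyl and hook 26 lower and 2 higher (41.9% and 22.8%). After median-ratio scaling the background shifted and the counts of members did not move much: in pifq 35, 34 and 32 were lower (26.6%, 32.8% and 29.7% of all genes) and 0, 1 and 2 higher (20.4%, 35.7% and 33.1%), in the same order of comparisons. In WT 34, 33 and 26 were then lower (29.7%, 35.2% and 30.2%) and 2, 2 and 5 higher (28.8%, 39.1% and 29.9%).

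The gradient was steep for the Rubisco copies. RBCS1A had 2329, 1408 and 1888 FPKM in pifq hypocotyl, against 12026, 14219 and 14541 FPKM in pifq cotyledon (log2 change -2.88, SE 0.23). RBCS2B was lower still in pifq, at -4.15 between hypocotyl and cotyledon. In WT the values were close, at -3.1 for RBCS1A and -3.03 for RBCS2B. RCA was lower by 2.64 in pifq (log2 change -2.64) and by 2.42 in WT (log2 change -2.42). The gradient of TKL2 ran the other way, at 24.8, 26.2 and 21.2 FPKM in pifq hypocotyl, against 7.39, 6.32 and 5.31 FPKM in pifq cotyledon (1.78, SE 0.13, adjusted p = 6.47e-09). FBA3 was also higher in hypocotyl than in cotyledon, by 0.60 in pifq and 0.77 in WT; after median-ratio scaling these values were 0.24 and 0.86, and the pifq one was no longer called (adjusted p = 0.125). GLDP2 and CP12-3 were called in none of the pifq organ comparisons. After median-ratio scaling GLDP2 was called lower in pifq hook (-0.78, adjusted p = 0.000299) and in pifq hypocotyl (-0.63, adjusted p = 0.000888) than in pifq cotyledon.

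**Figure D4:**
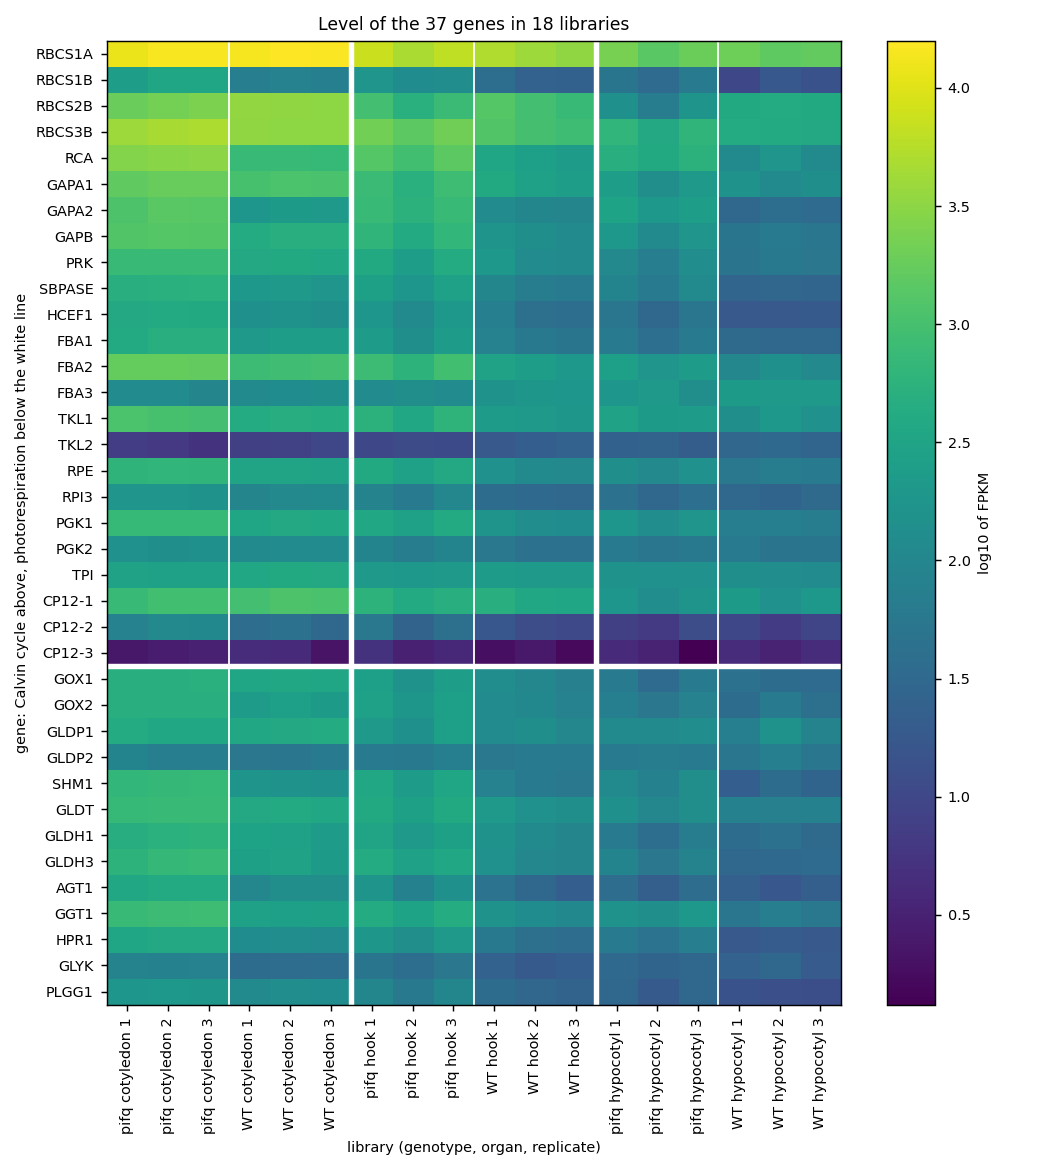
Level of each gene (log10 of FPKM, colour) in each of the 18 libraries, pifq left of WT in each organ, with Calvin cycle genes above and photorespiration genes below the white line. Colours darken from cotyledon to hypocotyl for most genes, RBCS1A is brightest throughout, and CP12-3 is darkest.

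Whether the pifq effect differed between organs was tested as an interaction. Between hook and cotyledon, the log2 change was higher in hook for 5 of the 37 genes and lower for TKL2, against 30.5% and 10.9% of all genes. The median difference was 0.34 for Calvin cycle and 0.23 for photorespiration genes, close to 0.246 over all genes. Between hypocotyl and cotyledon 1 gene, TPI, was higher and 5 were lower, against 34.7% and 11%; medians were -0.15 and -0.20 for the pathways and 0.282 over all genes. Between hypocotyl and hook 1 was higher and 8 were lower, against 16.6% and 12.5%; medians were -0.50 and -0.49, with 0.016 over all genes. CP12-2 gave the lowest values, -1.41 (SE 0.37, adjusted p = 0.00539) against cotyledon and -1.57 (adjusted p = 0.00474) against hook. AGT1, GLYK and RBCS2B were also lower against both other organs. These counts moved with single libraries: 12 genes were called higher between hook and cotyledon without pifq hook replicate 2, 9 without WT hook replicate 1, and 0 to 3 without any of pifq cotyledon replicates 1 to 3, WT cotyledon replicates 2 and 3, pifq hook replicates 1 and 3 or WT hook replicates 2 and 3. The 5 lower between hypocotyl and cotyledon became 2 or 3 without pifq cotyledon replicate 2 or 3, pifq hypocotyl replicate 2, or any WT cotyledon or WT hypocotyl library. The 8 lower between hypocotyl and hook became 14 without pifq hook replicate 2, 12 without WT hook replicate 1, and 5 without pifq hook replicate 1 or WT hook replicate 3. After median-ratio scaling the counts were 0 higher and 3 lower (14.4% and 21.8% of all genes), 0 and 12 (15.9% and 23.2%), and 1 and 9 (14.2% and 14.1%).

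The Calvin cycle and photorespiration were set side by side without a test of the difference between them. The middle quartiles of the log2 change in cotyledon ran from -0.15 to 1.39 for the Calvin cycle and from 0.60 to 1.51 for photorespiration, and RBCS1A, RBCS2B, TKL2, FBA3, TPI, CP12-1 and CP12-3 were the Calvin cycle genes with a value below 0. Summed over its 13 genes, photorespiration had 5581.33 to 6138.36 FPKM in pifq cotyledon and 2728.92 to 2920.43 FPKM in WT cotyledon. The 24 Calvin cycle genes summed to 32720.43 to 37838.39 FPKM in pifq cotyledon and 27618.05 to 30072.23 FPKM in WT cotyledon. Of this, RBCS1A alone gave 12026, 14219 and 14541 FPKM in pifq and 13987, 15845 and 15150 FPKM in WT. The Calvin cycle sum thus rests heavily on a gene not called in cotyledon. In hook it averaged 16275 FPKM in pifq and 9091 FPKM in WT, and the photorespiration sum 2868 and 1126 FPKM. In hypocotyl the averages were 5385 and 4159 FPKM for the Calvin cycle, and 1001 and 575 FPKM for photorespiration.

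Genes next to these pathways were counted from lists chosen by function, and are to be read against the shares of all genes, 24.4%, 36.6% and 35.9% higher and 35.4%, 24% and 16.5% lower in cotyledon, hook and hypocotyl. Of 22 further photorespiration genes 21 were tested, and 13 rose and 4 fell in cotyledon, 12 rose and 2 fell in hook, and 9 rose and 3 fell in hypocotyl. After median-ratio scaling 8 rose and 8 fell in hypocotyl, against 23.4% and 27.1% of all genes. Log2 changes here and in the next paragraph are given only for organs where a gene led its list. The same gene may also have changed in other organs. GLN2, the plastid glutamine synthetase that recaptures ammonia, averaged 1151 ± 47.5 FPKM in pifq cotyledon and 399.3 ± 14.8 FPKM in WT cotyledon (SD, n = 3 each; log2 change 1.52). GLU1, ferredoxin-dependent glutamate synthase, rose by 1.75 in hook and 1.31 in hypocotyl. It had 394, 299 and 296 FPKM in pifq cotyledon, against 167, 134 and 150 FPKM in WT cotyledon. CAT2, the leaf peroxisomal catalase, fell by 0.79 in hook and 0.93 in hypocotyl, and PMDH1, a peroxisomal malate dehydrogenase, fell by 1.75 in cotyledon. CAT2 had 271, 239 and 256 FPKM in pifq cotyledon, against 483, 519 and 502 FPKM in WT cotyledon. Of 19 genes for Rubisco assembly and plastid redox or transport, 8, 16 and 9 rose and 1, 1 and 0 fell in cotyledon, hook and hypocotyl. After median-ratio scaling 11, 15 and 6 rose (32.4%, 28.6% and 23.4% of all genes) and 1, 1 and 1 fell (27.4%, 31.2% and 27.1%). Thioredoxin f gene TRXF1, which activates Calvin cycle enzymes in light, rose by 1.96 in cotyledon and 2.29 in hook. In hypocotyl TRXF1 had 57.6, 41.5 and 53.8 FPKM in pifq, against 10.4, 13.6 and 9.62 FPKM in WT. TPT, the triose phosphate exporter, averaged 225.7 ± 33.1 FPKM in pifq hypocotyl and 39.78 ± 0.842 FPKM in WT hypocotyl (SD, n = 3 each; log2 change 2.46, adjusted p = 2.66e-10). The chaperonin gene CPN60A1 fell by 0.85 in cotyledon and RBCX1, a Rubisco assembly factor, by 0.63 in hook.

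The 15 cytosolic and non-photosynthetic counterparts had 3 higher and 6 lower in cotyledon, 6 and 2 in hook, and 6 and 2 in hypocotyl. After median-ratio scaling they were 5 and 5, 4 and 5, and 4 and 4. The shares of all genes were then 32.4%, 28.6% and 23.4% higher and 27.4%, 31.2% and 27.1% lower. GAPC2, the cytosolic glyceraldehyde-3-phosphate dehydrogenase, rose by 1.85 in cotyledon and 1.48 in hook. In hypocotyl GAPC2 had 987, 768 and 656 FPKM in pifq, against 476, 431 and 413 FPKM in WT. RPI1, a ribose-5-phosphate isomerase, fell by 1.27 in cotyledon, and the glycolytic plastid GAPCP2 by 0.44 in hook. Of the cytosolic aldolases in hypocotyl, FBA7 rose by 0.95 and FBA6 fell by 0.82.

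Upstream motifs were then counted in both pathways. Since gene starts did not match between copies, a window of 500 bases before the start codon was counted as well, chosen after the first window had been seen. There the I-box was held by 17 of 24 Calvin cycle genes (70.8%) and 0 of 13 photorespiration genes, against 23.5% of all 27443 genes. The G-box was held by 10 of 24 (41.7%) and 1 of 13 (7.69%), against 9.3% of all genes, and the PBE-box by 4 of 24 (16.7%) and 0 of 13, against 17.9%. In the 250 bases before the gene start the counts were 5, 4 and 2 of 24 for I-box, G-box and PBE-box and 1, 2 and 0 of 13, against 12.3%, 6.5% and 11.1% of all promoters. For GLDP2, AGT1, GGT1 and TPI the start codon lies 505, 577, 692 and 1364 bases past the gene start. Their longer window therefore lies inside the annotated gene and holds none of the bases before it. The I-box of GLDP2 and the G-box of GGT1 were found only in the shorter window. Of the genes that rose in all 3 organs, TKL1, GLDH3, GLDT, GOX2, HPR1, PLGG1 and SHM1 held none of the 3 motifs in either window. GGT1 held only its G-box in the shorter window. The other Calvin cycle genes that rose in all 3 organs each held at least 1 motif in the longer window. Of those that rose in no organ, RBCS2B, CP12-1 and TKL2 held motifs there and FBA3 did not. In the longer window GAPA1 held 1 I-box, and GAPA2 held 1 PBE-box and no I-box. A match is a string of letters and not a shown binding site.

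**Figure D5:**
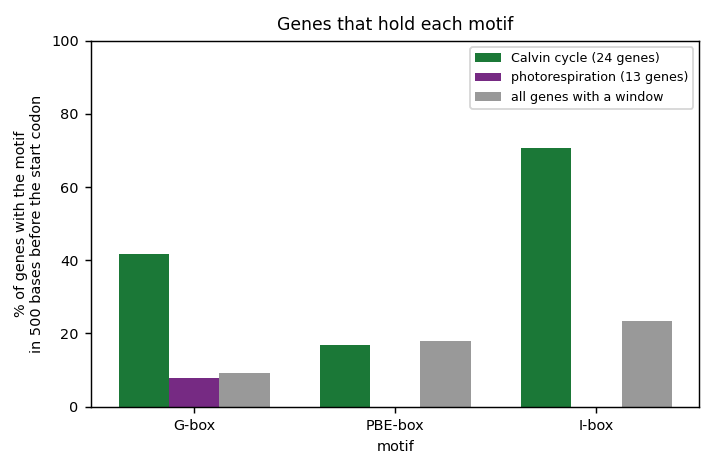
Share of Calvin cycle genes, photorespiration genes and all genes that hold each motif at least once in the 500 bases before the start codon (y axis, %). The I-box bar is 70.8% for the Calvin cycle, 0 for photorespiration and 23.5% for all genes.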

How the data were processed

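Transcripts of 18 dark-grown seedling libraries were analysed, 3 per genotype and organ, grouped by their labels. The authors deposited 1 FPKM value per gene for 26073 genes. File headers name no unit; FPKM follows from the values, since with TAIR10.1 exon lengths 99.37% to 99.50% of low values were whole reads within 0.05. The submitters' processing notes name TAIR10, HISAT2 and DESeq2 without roles. The counting of shared reads is not given in the sources used here.

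limma 3.58.1 in R 4.3.3 was fitted with a trend on log2(FPKM + 1) to 19349 genes with at least 1 FPKM in 3 libraries, as 6 group means, with Benjamini-Hochberg adjustment per contrast. Fold changes on that scale understate those of low genes. Paralog ratios used exact permutation. On data simulated for the cotyledon contrast over 19006 genes, 40.3% of 67 genes changed 1.5-fold and 85.1% of 67 changed 2-fold were recovered, and 11 of 18806 unchanged genes were called. The simulation used WT cotyledon means and a fixed spread between libraries that was not estimated from these data. Its shares hold for that setting and not for the spread seen here. Named genes are all 37, the PIF loci, rbcL and, per other list and organ, the largest called rise and fall. Members and lists were chosen with earlier results of these data known. The labels do not state separate cultures, so p-values measure only the spread between these libraries. Alternatives are given in the closing section.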

Additional observations from a re-analysis of the deposited data

Results flagged for a closer look

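Effects of pifq that differed between organs by the limma interaction test are given here as log2 differences, at adjusted p under 0.05. Between hook and cotyledon they were 0.80 for PLGG1, 0.46 for PGK2, 0.97 for CP12-3, 0.35 for TPI, 0.60 for RPI3 and -0.52 for TKL2. Between hypocotyl and cotyledon they were -0.87 for GLYK, -1.05 for AGT1, 0.66 for TPI, -0.64 for TKL1, -1.41 for CP12-2 and -1.12 for RBCS2B. Between hypocotyl and hook they were -0.64 for PGK2, -1.16 for CP12-3, -0.82 for GLYK, -1.38 for AGT1, -0.84 for FBA1, 0.61 for TKL2, -0.92 for RPI3, -1.57 for CP12-2 and -1.28 for RBCS2B. After median-ratio scaling the hook against cotyledon value of TPI was -0.03 and that of PGK2 was 0.07.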

How the results depend on the processing

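With organelle transcripts as a covariate, pifq cotyledon had 5 Calvin cycle and 5 photorespiration genes higher, with 2713 of all genes higher and 3406 lower; pifq hook had 11 and 5 higher, 1 Calvin cycle gene lower, and 3998 and 1971 of all genes. GOX1 in cotyledon (-0.13) and FBA3 in hook (0.09) changed sign. Median-ratio scaling left 0 Calvin cycle genes lower in cotyledon and 4 in hypocotyl, where all genes had 4525 higher and 5235 lower. It gave, between hook and cotyledon, 0 of the 37 higher and 3 lower (all genes 2790 and 4213), and between hypocotyl and cotyledon 0 higher and 12 lower (3081 and 4493). In pifq it gave 0 of the 37 higher in hook than in cotyledon (all genes 3948 and 5151) and 1 higher in hypocotyl than in cotyledon, and in WT 5 higher in hypocotyl than in hook. Signs turned for TPI in hypocotyl (-0.0), TPI between hook and cotyledon (-0.03) and FBA3 in pifq hook against cotyledon (-0.35). Without both low pifq libraries, chosen after seeing the data, hypocotyl had 2 Calvin cycle genes lower and 11 photorespiration genes higher, the organ differences had 16, 2 and 0 genes higher (hook minus cotyledon, hypocotyl minus cotyledon, hypocotyl minus hook), and 1 gene was higher in pifq hypocotyl than in hook. No filter gave 3 higher between hook and cotyledon and 2 lower between hypocotyl and cotyledon. A pseudocount of 0.1, or removal of organelle genes, gave 0 lower between hook and cotyledon, and that removal 2 higher between hypocotyl and hook. Fitting only the libraries compared gave 1 higher in pifq hypocotyl than hook, and the filter of 5 FPKM 1 higher in WT. The cause of these was not tested. Leaving out each replicate in turn gave ranges of 1 to 3 and 1 to 2 Calvin cycle genes lower (cotyledon, hypocotyl), 6 to 11 photorespiration genes higher in hypocotyl, 0 to 12 higher and 0 to 1 lower (hook minus cotyledon), 2 to 5 lower (hypocotyl minus cotyledon), 0 to 2 higher and 5 to 14 lower (hypocotyl minus hook), 1 to 2 and 1 to 3 higher in hypocotyl than hook (pifq, WT), and 0.19 to 0.36 for GOX2 to GOX1. Within an organ, pifq and WT libraries with the same replicate number had correlations of -0.01 to 0.247. Whether organs of one genotype with the same number are paired was not tested. With a replicate block shared by both genotypes all 54 counts stayed within 1.5 times. No paralog call changed with replicate numbers paired, at -1.91 for GAPA1 to GAPA2. Near-identical copies and the few libraries limit the precision.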
